A study of Mus musculus with 18 samples.

Results

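The knockdown of Fto in 3T3-L1 cells was examined as 2 m6A peak lists from siFTO cells set against 2 lists from control siRNA (siCtrl) cells. These 4 lists are all the siRNA lists of the series, out of 9 lists in all, and they draw on 8 of its 18 samples, since each list joins an antibody-enriched library (IP) and its input. They held 145847 of the 338246 peaks, on 11482 of the 12634 genes with a peak. The siFTO cells had Fto knocked down by small interfering RNA. The siCtrl cells are the counterpart labelled control or normal, and both groups are pre-adipocytes of the one cell line. 3T3-L1 is a mouse embryo fibroblast line that can be induced to become fat-storing adipocytes. Poly(A) RNA was fragmented and enriched with an m6A antibody. The labels give neither the siRNA sequence nor the time after transfection. They do not say that the replicates were separate cultures, so p-values measure the spread between these samples, which may be technical. The other 5 lists, 1 each from days -2, 0, 2, 5 and 10 of adipogenesis, serve below only as a setting for the siRNA values.

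N6-methyladenosine (m6A) is laid down on nascent RNA by a methyltransferase complex built on Mettl3 and Mettl14, is removed by the demethylases Fto and Alkbh5, and is read by YTH-domain and Igf2bp proteins. In most mammalian messenger RNAs the mark is dense near the stop codon and in long exons. Fto also removes the related m6Am mark, which sits beside the cap where a transcript starts with adenosine, and antibodies against m6A bind that mark too. In pre-adipocytes Fto is known for its part in adipogenesis, where its loss has been tied to altered splicing of Runx1t1 through the SR protein Srsf2.

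The quantity compared was the number of bases that peaks cover, per list, per gene and per transcript part, which is the authors' label on each peak: intron, coding sequence or either UTR. Peaks were 75 to 200 bases long and did not overlap within a list. Total covered bases were 4931669 and 3877051 in the siFTO lists, against 4877371 and 5309014 in the siCtrl lists. The groups overlapped on this measure (two-sided exact permutation p = 0.667), and siFTO 2 was the shortest of the 4. A peak can depend on the level of the RNA and on read depth as well as on methylation, and the lists carry no read counts, so depth is unknown and RNA levels were not measured here. Fewer marked cells and less mark per cell cannot be told apart in bulk RNA. The day -2 list, whose labels name no siRNA, stood apart from the later days in the same direction as siFTO did from siCtrl, with 5.94% of its covered bases in the 5' UTR. All 12 fibroblast markers on a list had a peak, and they summed to 10950 and 8975 covered bases in siFTO and 14450 and 14650 in siCtrl. Of 28 markers of immune, endothelial, muscle, epithelial and neural cells 6 had a peak, summing to 875 and 425 bases in siFTO and 850 and 1050 in siCtrl. The neural marker Map2 was 1 of these 6, with 325 and 300 bases in siFTO and 275 and 400 in siCtrl. The immune marker Ptprc, the endothelial Pecam1, the epithelial Epcam and the muscle factor Myod1 had none in any of the 4 lists.

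The 5' ends of transcripts held a smaller share of the peaks in siFTO, and introns a larger one. The 5' UTR held 4.31% and 5.02% of covered bases in the siFTO lists, against 12.3% and 11.5% in the siCtrl lists. Introns held 18.6% and 16.7% in siFTO and 10.9% and 11.5% in siCtrl, and the 3' UTR 16.4% and 14.7% in siFTO and 13.5% and 13.9% in siCtrl. On these 3 shares both siFTO lists lay to one side of both siCtrl lists. The coding share was 60.7% and 62.6% in siFTO against 63.3% and 62.2% in siCtrl, and the groups overlapped. The mean differences, siFTO minus siCtrl, were -7.23 points for the 5' UTR, 6.43 for introns, 1.85 for the 3' UTR and -1.12 for coding sequence. The exact permutation p was 0.33 (two-sided) for each of the first 3, which is the smallest that 2 lists against 2 allow, and 0.667 for coding sequence. Adjusted over the 8 list measures these became 0.533 and 0.667, so no list measure could pass 0.05 in this design.

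**Figure D1:**
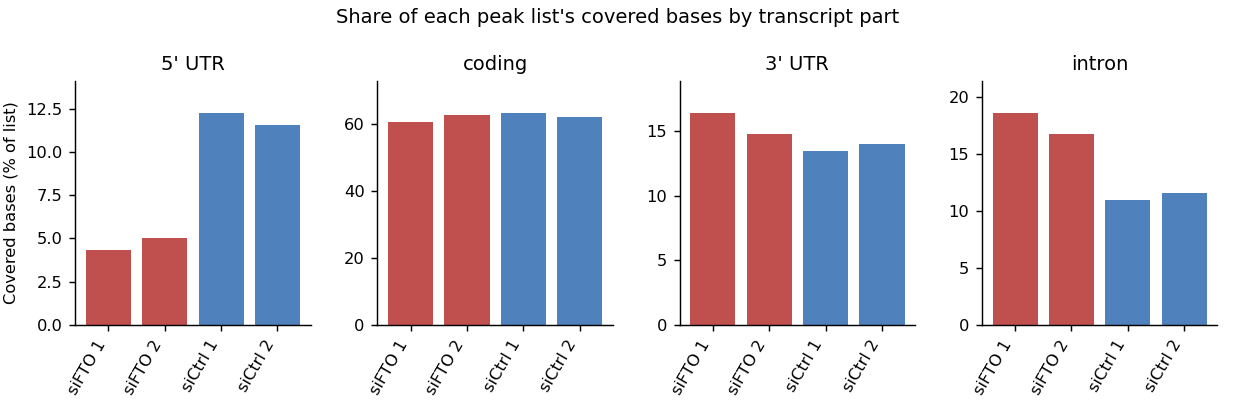
Share of covered bases (percent of each list, y axis) in the 5' UTR, coding sequence, 3' UTR and introns, with 1 bar per list and no error bar because each bar is 1 list. Both siFTO bars are at or below 5.02% in the 5' UTR panel and both siCtrl bars at or above 11.5%, while the coding bars overlap.

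The 5' UTR positions of siCtrl were for the most part without any peak in siFTO, and few of them had a peak under another part name. Of the 5' UTR bases in siCtrl 1, 71.9% had no peak of the same gene in siFTO 1 and 72.8% had none in siFTO 2, while 1.93% and 1.84% were covered there under another part name. Within the control pair, 8.60% of those siCtrl 1 bases had no peak in siCtrl 2. The siFTO pair differed more, since 28.1% of the siFTO 1 5' UTR bases had no peak in siFTO 2 and 20.98% of those of siFTO 2 had none in siFTO 1. In the other direction, 73.4% of the siFTO 1 5' UTR bases and 77.9% of those of siFTO 2 were 5' UTR bases in siCtrl 1 as well. Most 5' UTR bases of siFTO were therefore 5' UTR bases of siCtrl too, while most of those of siCtrl had no counterpart in siFTO.

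Distance from the RefSeq gene start gave the same picture without the authors' part names. In siFTO the covered bases between 0 and 100 bases from the start were 0.304 times the siCtrl mean, with 55016 and 50585 bases in siFTO against 171508 and 175492 in siCtrl. The ratio was 0.338 at 100 to 250 bases, 0.336 at 250 to 500, 0.502 at 500 to 1000 and 0.722 at 1000 to 2500. Beyond that the ratio was 0.967 at 2500 to 10000 bases and 1.02 farther in. In the first bin the ratio was 0.321 between the lists numbered 1 and 0.288 between those numbered 2. Restricting the count to bases labelled coding gave 0.363, 0.403 and 0.373 in the first 3 bins and 0.931 in the last, so coding sequence close to the start was also less covered. Leaving out each list in turn moved the ratio within 500 bases of the start only between 0.322 and 0.336.

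At the other end of the gene the ratio of siFTO to siCtrl was 1.73 within 100 bases of the RefSeq gene end, and 2.14 and 1.32 between same-numbered lists. That bin was small, with 14030 and 8542 bases in siFTO against 6563 and 6449 in siCtrl. Its share of placed coverage was 0.29% and 0.23% in siFTO and 0.14% and 0.13% in siCtrl. The ratio was 1.12 at 100 to 250 bases from the end and 1.0 at 250 to 500, and it lay between 0.811 and 0.943 farther from the end. The 2 same-numbered ratios stood on opposite sides of 1 from 100 to 10000 bases, so only the first 100 bases gave more coverage in both comparisons.

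**Figure D2:**
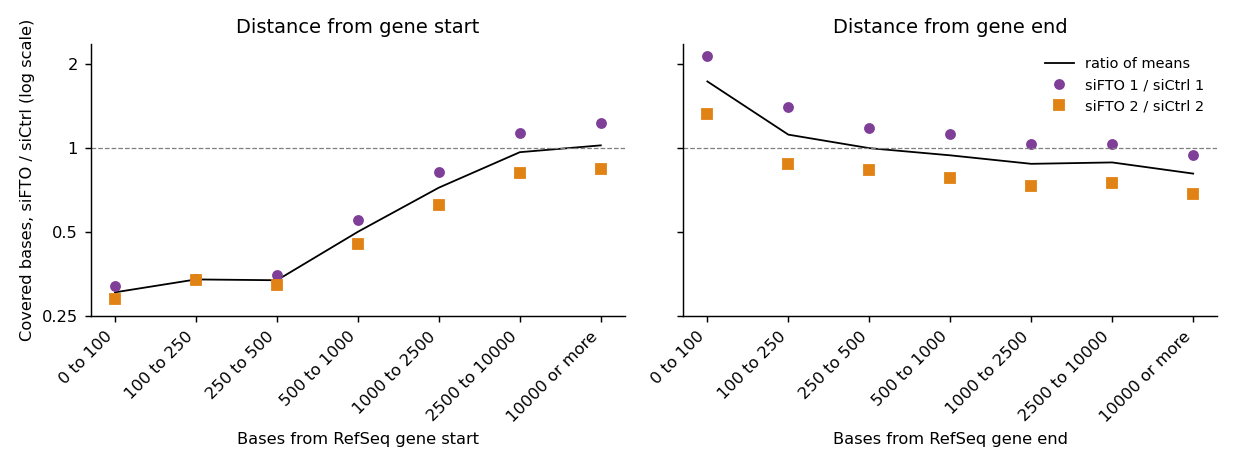
Ratio of covered bases, siFTO over siCtrl (log2-spaced y axis), by distance in bases from the RefSeq gene start (left) and gene end (right). The line is the ratio of the 2-list means and the symbols are the ratios of lists with the same number. The line lies at 0.304 in the first 100 bases from the start and at 1.02 beyond 10000 bases.

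Peaks over the start site itself were found in fewer genes in siFTO. A peak of the gene lay over a RefSeq start site in 326 (4.17%) and 312 (4.32%) of the genes with a peak and a listed site in the siFTO lists, against 1134 (16.8%) and 1175 (16.7%) in the siCtrl lists. Site by site, 27 start sites had a peak in siFTO alone (both lists, and no siCtrl list), 194 had one in all 4 lists, and 752 had one in siCtrl alone (both lists, and no siFTO list). The 752 siCtrl-only sites began with A in 25.4% of cases, the 194 shared sites in 25.3%, and all 11213 listed sites of genes with a peak in 29.2%. Of the 27 siFTO-only sites 37.0% began with A. These shares were not tested against each other. G was the first base of 52.5% of siCtrl-only and 54.6% of shared sites. GC content was taken over 300 bases, 250 before the site and 50 from it, so mostly upstream of the transcript. Its median was 68.2% for siCtrl-only sites and 66.7% for shared ones, against 61.0% for all sites of genes with a peak. The tetramer GGAC, a core form of the m6A consensus, was searched on the transcript strand in the 50 bases from the start site. It was found at 23.1% of siCtrl-only, 30.4% of shared and 20.5% of all sites of genes with a peak. These are descriptions of the annotated site, which need not be the site used in these cells.

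The windows that follow show 8 siCtrl-only start sites, so that the first transcribed base can be seen beside its surroundings. They belong to the genes with the smallest limma p for a loss of 5' UTR coverage among those with 1 listed start site, a choice made after the values were seen. Sequences are RefSeq's (GRCm38.p6), run 5' to 3' on the gene's strand with 20 bases before the site and 9 after it, and carry the annotated start base in capitals.
Ubn1, chr16:5050037-5050066, plus strand: cgtcgaagcccagagactccAagctcccgc
Igsf3, chr3:101377105-101377134, plus strand: ctgcgggaggcgaggaggaaGccgtgcgtc
Kirrel, chr3:87174528-87174557, minus strand: ggctagagaggcaagcgagtGtgcgccttg
Plxnd1, chr6:115994996-115995025, minus strand: cggggagatgggctgtgggcGtggtctcca
Bcl7c, chr7:127708757-127708786, minus strand: cggggctggccgggcttccaGgccggggct
Gorasp2, chr2:70661489-70661518, plus strand: cgatcgttccctccggctccCgtcaggggg
Ppp1cc, chr5:122158255-122158284, plus strand: agtcccggccgggccgctgcActcccgcgc
Ust, chr10:8518816-8518845, minus strand: tccgcctcccgatcctccctGccttgagct

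Of these 8 genes, Ubn1, a subunit of the HIRA histone chaperone, kept some 5' UTR coverage in both siFTO lists (log2 difference -1.87) and had 725 and 725 bases in siCtrl. The other 7 had none in either siFTO list. Igsf3, Kirrel and the semaphorin receptor Plxnd1 each had 400 and 400 bases in siCtrl. Bcl7c, a BAF complex subunit, and the Golgi stacking protein Gorasp2 had 375 and 375 bases in siCtrl. The phosphatase subunit Ppp1cc and the sulfotransferase Ust had 350 and 350 in siCtrl. The capital start base is A in 2 of the 8 windows, G in 5 and C in 1.

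Per gene, 2868 genes had a 5' UTR peak in both siCtrl lists, and 1598 of them (55.7%) had none in either siFTO list. Most of these were marked elsewhere in the gene: 1284 of the 1598 had another peak in both siFTO lists, and 149 had no peak at all in either. In the reverse direction 1046 genes had a 5' UTR peak in both siFTO lists, and 101 of them (9.66%) had none in either siCtrl list. The same count made on bases within 500 of the gene start gave 3258 genes covered in both siCtrl lists, of which 1742 (53.5%) were bare in both siFTO lists.

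Covered stretches were shorter in siFTO. Peaks that touch end to end were joined into stretches, which numbered 34634 and 28104 in siFTO and 27746 and 30014 in siCtrl. Their mean length was 142 and 138 bases in siFTO against 176 and 177 in siCtrl, a difference of -36.2 bases (exact permutation p = 0.33, two-sided, adjusted 0.533). Stretches of 3 or more peaks numbered 546 and 300 in siFTO against 1345 and 1518 in siCtrl. Stretches of at least 500 bases numbered 281 and 153 in siFTO against 850 and 931 in siCtrl. More genes carried a peak in siFTO, 10136 and 9353 in siFTO against 8710 and 9086 in siCtrl (difference 846.5, exact permutation p = 0.33, two-sided).

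The differentiation lists place these values, although each day has 1 list and no test is possible. Bases within 500 of the gene start were 4.89% and 6.01% of placed coverage in siFTO and 14.6% and 13.7% in siCtrl, against 7.40% on day -2 and 15.99% to 19.2% on days 0 to 10. Mean stretch length was 132 bases on day -2 and 181 to 186 on days 0 to 10. Genes with a peak over a start site were 5.18% on day -2 and about 20% to 21.4% afterwards. On all 3 measures the day -2 list lay nearer to the siFTO lists than to the siCtrl lists. What the day -2 and siFTO lists share was not tested.

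Gene parts were then tested with limma on log2(covered bases + 100), over the 10370 parts whose mean across the 4 lists passed a minimum of covered bases. A part bare in 1 group could pass that minimum through the other group alone. In the 5' UTR, 465 of 1138 parts fell (40.9%) and 28 rose (2.46%), at a Benjamini-Hochberg adjusted p below 0.05. With no minimum, 1760 of 3711 5' UTR parts fell and 121 rose. Coding parts fell in 960 of 5654 cases (17.0%) and rose in 391 (6.92%). 3' UTR parts fell in 269 of 2113 (12.7%) and rose in 150 (7.10%), and intron parts fell in 141 of 1465 (9.62%) and rose in 151 (10.3%). Both siFTO lists lay below both siCtrl lists in 75.2% of 5' UTR, 43.3% of coding, 36.5% of 3' UTR and 29.6% of intron parts. They lay above in 5.1% of 5' UTR, 24.1% of coding, 20.2% of 3' UTR and 35.6% of intron parts. Over all parts 1835 fell (17.7%) and 720 rose (6.94%), and the median difference was -0.67 for 5' UTR, -0.15 for coding, -0.08 for 3' UTR and 0.10 for intron parts (log2 scale). Covered bases come in coarse steps, and 963 parts held identical values within siFTO and within siCtrl, which leaves limma almost no spread to measure. Of the calls, 224 of the rises and 519 of the falls are of this kind. Without such rows the 5' UTR calls were 292 falls and 3 rises of 877. Scaling the lists to equal total covered bases gave 366 falls and 8 rises in the 5' UTR, 819 falls and 747 rises in coding sequence, 165 falls and 182 rises in the 3' UTR, and 127 falls and 302 rises in introns. In the 3' UTR falls therefore outnumbered rises before scaling and not after it. Scaling raised the share of rises among all called parts to 45.6% in place of 28.2%. Leaving out each list in turn gave between 428 and 501 falls in the 5' UTR.

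**Figure D3:**
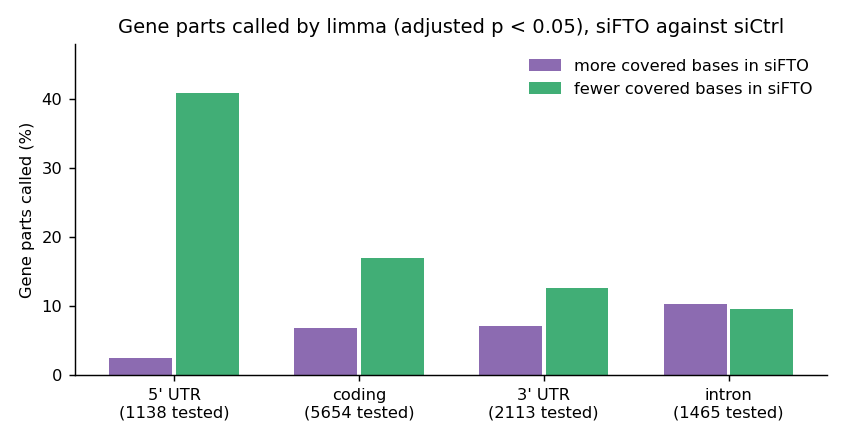
Share of tested gene parts (percent, y axis) called by limma with more or fewer covered bases in siFTO than in siCtrl, by transcript part, with the number tested under each name. The 5' UTR has 40.9% fewer and 2.46% more, while the intron bars are near equal at 9.62% and 10.3%.

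All but 1 of the named parts had identical values within each group (the exception is an intron part, given with the introns), so the bases themselves are given. Fbxl19, a CpG-island-binding F-box protein, had 0 and 0 bases of 5' UTR coverage in siFTO against 487 and 487 in siCtrl. The stress kinase Mapk14 had 0 and 0 in siFTO against 425 and 425 in siCtrl, and Tshz1 and the cyclin Ccni each had 0 and 0 in siFTO against 450 and 450 in siCtrl. Every siFTO list stood at zero for these 4 genes, so their 5' UTR parts passed the minimum through siCtrl alone.

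Coding and 3' UTR changes ran in both directions. Coding coverage rose to 700 and 700 bases in siFTO against 100 and 100 in siCtrl for Map9, which stabilises mitotic spindles. It rose to 400 and 400 in siFTO against 0 and 0 in siCtrl for Mtbp, and to 325 and 325 in siFTO against 0 and 0 in siCtrl for the nuclear exonuclease Xrn2. It fell to 0 and 0 in siFTO against 625 and 625 in siCtrl for Sntb2, a syntrophin, and to 0 and 0 in siFTO against 506 and 506 in siCtrl for the zinc transporter Slc39a3. In the 3' UTR, Wars, the tryptophanyl-tRNA synthetase, rose to 350 and 350 in siFTO against 75 and 75 in siCtrl. The termination factor Etf1 rose to 250 and 250 in siFTO against 0 and 0 in siCtrl. Adarb1, an adenosine-to-inosine editing enzyme, fell to 275 and 275 in siFTO against 850 and 850 in siCtrl. Tfeb, a regulator of lysosomal genes, fell to 0 and 0 in siFTO against 375 and 375 in siCtrl. Twist1, a mesenchymal bHLH factor, rose to 250 and 250 in siFTO against 0 and 0 in siCtrl in the 3' UTR and fell to 500 and 500 in siFTO against 780 and 780 in siCtrl in coding sequence.

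Within genes, the balance between 5' UTR and coding coverage was tested for the 811 genes with enough of both. The ratio was lower in siFTO for 228 genes (28.1%) and higher for 64 (7.89%), by limma with adjusted p below 0.05. Both siFTO lists lay below both siCtrl lists for 53.0% and above for 21.7%, and the median difference was -0.43 on the log2 scale. No call remained when either siCtrl list was left out, which leaves the group with a single list. Cask, a membrane scaffold kinase, had no 5' UTR base in siFTO against 525 and 434 in siCtrl, while its coding bases were 275 and 275 in siFTO against 0 and 0 in siCtrl. Cask thus passed the minimum in the 5' UTR through siCtrl alone and in coding sequence through siFTO alone. In siCtrl 1 its 5' UTR peaks lay within chrX:13846101-13846750, and in siFTO 1 and siFTO 2 alike a coding peak lay at chrX:13533326-13533525 (mm10). Usp1, a deubiquitinase of DNA repair, had coding bases of 1000 and 775 in siFTO against 150 and 150 in siCtrl, and 5' UTR bases of 0 and 0 in siFTO against 300 and 300 in siCtrl. The remodeller Chd1 had 0 and 0 in siFTO against 300 and 325 in siCtrl in the 5' UTR, with 1275 and 1075 in siFTO against 650 and 700 in siCtrl in coding sequence. The other 3 of the 6 with the smallest p were C1galt1, Ints6 and Eva1b. C1galt1 passed the minimum in the same way as Cask.

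The opposite shift was seen in fewer genes. Dvl3, a Dishevelled protein of the Wnt pathway, had 200 and 200 5' UTR bases in siFTO against 112 and 112 in siCtrl, while its coding bases fell to 300 and 250 in siFTO against 875 and 925 in siCtrl. Marveld1, a MARVEL-domain membrane protein, had 275 and 250 in siFTO against 150 and 150 in siCtrl in the 5' UTR and no coding base in siFTO against 325 and 325 in siCtrl. The phosphatase Dusp1 had 200 and 200 in siFTO against 150 and 137 in siCtrl in the 5' UTR and no coding base in siFTO against 275 and 238 in siCtrl. Ttyh3, the kinase Map3k11 and the amino acid transporter Slc38a2 were the other 3 named in this direction.

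Intronic peaks were spread over more genes in siFTO and ranked higher among the peaks of their own list. An intron peak was found in both siFTO lists for 2434 genes, of which 1081 (44.4%) had none in either siCtrl list. It was found in both siCtrl lists for 1795 genes, of which 389 (21.7%) had none in either siFTO list. Many genes fell short of that minimum for intron bases and were not tested above. Without that filter limma tested 5518 intron parts, of which 804 rose and 457 fell. The median intron peak stood at percentile 79.3 and 77.7 of its own list's folds in siFTO, against 63.9 and 64.8 in siCtrl, where the fold is the authors' enrichment value. For 5' UTR peaks the order was the opposite, with 38.8 and 43.0 in siFTO against 57.8 and 56.7 in siCtrl. Of the intron peaks with a fold above 10, the 3781 and 2502 in siFTO took 637 and 621 distinct values, and the 624 and 802 in siCtrl took 334 and 389. Genes of 100000 bases or more held 23.4% and 22.1% of intron bases in siFTO, against 18.4% and 18.9% in siCtrl. The sources used here do not state how the fold was computed, and the part that a low input count plays in these folds was not tested.

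Among named genes, Ecd rose to 400 and 400 intron bases in siFTO against 0 and 0 in siCtrl, while its 5' UTR held 175 bases in siFTO 1 and siFTO 2 alike and was not called. Adgra2, an adhesion receptor of the Wnt7 pathway, rose to 450 and 450 in siFTO against 100 and 100 in siCtrl. The RNA-binding protein Rbpms and the adaptor Nck2 each rose to 275 and 275 in siFTO against 0 and 0 in siCtrl. Hoxd3os1 had the same values as Nck2, but it is an antisense RNA, and the TruSeq v2 kit does not mark strand, so its peaks cannot be told apart from those of the gene opposite. Fam227b had the smallest p among properly named genes that rose without overlap between the groups. Most of its covered bases lay in introns, with 1150 and 1175 intron bases in siFTO against 100 and 100 in siCtrl.

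Summed over whole genes, 5824 genes averaged at least 250 covered bases and were tested by limma. Coverage fell in 972 (16.7%) and rose in 293 (5.03%), with a median difference of -0.21 (log2 of bases + 100). Both siFTO lists lay below both siCtrl lists for 2661 tested genes (45.7%) and above them for 1305 (22.4%). Scaling to equal totals moved the median to -0.02 and gave 1097 falls and 948 rises, so rises were 46.4% of calls in place of 23.2%. With no filter on covered bases and no scaling, 1352 genes fell and 1034 rose, and rises were 43.3% of calls. Without siFTO replicate 2 there were 598 falls and 436 rises, and without siCtrl replicate 1 or siCtrl replicate 2 there were none. The SD between lists on the log2 scale was 0.369 for the siFTO pair and 0.218 for the siCtrl pair.

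The 10 genes with the smallest p among those that fell had large coverage in control cells. Notch1, a cell-fate receptor, fell to 375 and 350 bases in siFTO against 1800 and 1725 in siCtrl (log2 difference -2.01, SE 0.12, limma adjusted p = 0.0199), with losses in its 5' UTR, coding sequence and 3' UTR. Gpc1, a heparan sulfate proteoglycan, fell to 75 and 75 in siFTO against 1325 and 1375 in siCtrl. The collagen-processing protease Adamts14 fell to 100 and 100 in siFTO against 1500 and 1900 in siCtrl. The receptor phosphatase Ptprs fell to 300 and 200 in siFTO against 2525 and 2750 in siCtrl. Bahd1, which builds heterochromatin, fell to 350 and 350 in siFTO against 1525 and 1500 in siCtrl. The DM-domain factor Dmrta2 fell to 525 and 525 in siFTO against 1875 and 1950 in siCtrl. The other 4 were Gpr153, Prob1, Abtb2 and Ttyh3. These 10 were chosen by small p and by groups that do not overlap, so wide gaps follow from the choice. The highest siFTO value was 525 and the lowest siCtrl value 1325.

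The 10 genes with the smallest p among those that rose had at most 175 covered bases in either siCtrl list. They were chosen in the same way. Since the filter asks for a mean of at least 250 bases, genes so low in siCtrl passed it through their siFTO values. Utp14a, part of the machine that matures ribosomal RNA, rose to 1000 and 875 in siFTO against 100 and 100 in siCtrl (log2 difference 2.37, SE 0.17, limma adjusted p = 0.0199). Atad5, which unloads the replication clamp from DNA, had 1025 and 725 bases of coding coverage in siFTO and 0 and 0 in siCtrl. Its siFTO 1 peaks ran from chr11:80094501-80094638 to chr11:80132976-80133100 (mm10). Nepro had 625 and 575 in siFTO against 0 and 0 in siCtrl. The chromatin assembly subunit Chaf1b and the nucleolar protein Nol8 each rose to 700 and 575 in siFTO against 100 and 100 in siCtrl. Taf1, a subunit of the general factor TFIID, rose to 950 and 675 in siFTO against 75 and 75 in siCtrl. Casp4, an inflammatory caspase, rose to 925 and 850 in siFTO, a log2 difference of 1.99 from siCtrl. The SNARE Vti1a rose to 825 and 700 in siFTO against 150 and 150 in siCtrl. Map9 and Fam227b completed the set.

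**Figure D4:**
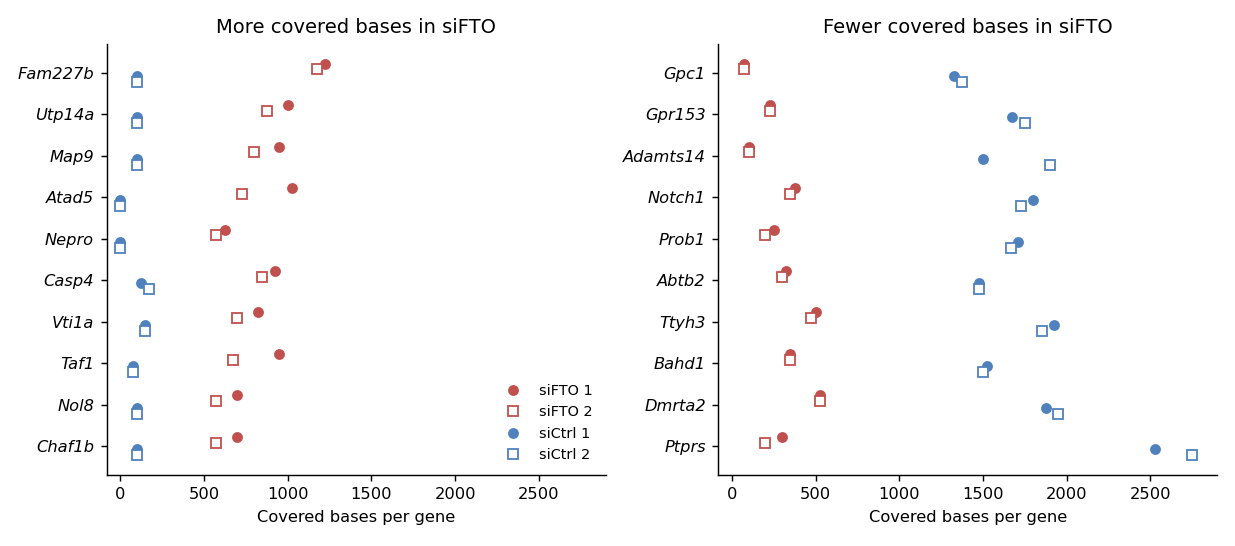
Covered bases per gene (x axis) in each of the 4 lists for the 10 genes with the smallest limma p among those with more (left) and fewer (right) covered bases in siFTO. Circles are lists numbered 1 and squares lists numbered 2. On the right every siFTO point is at or below 525 bases and every siCtrl point at or above 1325.

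The targeted gene carried peaks in all 4 lists. Fto (chr8:91313367-91668433 in RefSeq GRCm38.p6) had 675 and 400 covered bases in siFTO against 700 and 775 in siCtrl, with a log2 difference of -0.43 (SE 0.26, limma adjusted p = 0.278). Peak coverage is not an RNA level, and the knockdown itself was not checked here. Of the 15 tested genes among the writers, erasers and readers, 1 rose and 1 fell, where 5.03% of all tested genes rose and 16.7% fell. Alkbh5, the other m6A demethylase, fell to 775 and 500 bases in siFTO against 1900 and 1775 in siCtrl (log2 difference -1.42, SE 0.22, limma adjusted p = 0.0284). Most of the difference lay in peaks labelled intron, which held 400 and 250 bases in siFTO against 1375 and 1250 in siCtrl. In siCtrl 1 they lay within chr11:60537201-60539200 (mm10), close to the RefSeq start at 60537683. That range begins upstream of the RefSeq gene, so the authors' intron label does not match RefSeq over all of it. On day -2 Alkbh5 had 175 covered bases, and 1600 to 1850 on days 0 to 10. Igf2bp3, a reader that stabilises its targets, rose to 525 and 525 in siFTO against 175 and 200 in siCtrl. Mettl3, the catalytic writer, had 450 and 300 in siFTO and less in both siCtrl lists (log2 difference 1.06), and was not called (limma adjusted p = 0.0576). The reader Ythdf2 had 300 and 175 in siFTO against 550 and 600 in siCtrl and was not called (limma adjusted p = 0.0561), and its 5' UTR held 0 and 0 in siFTO against 200 and 200 in siCtrl. The reader Igf2bp1 had 0 and 0 in siFTO against 150 and 150 in siCtrl in the 5' UTR, although it was not called as a whole gene. Of all 19 members with a peak in the 4 lists, 7 had both siFTO values above both siCtrl values and 7 had them both below. All 11482 genes with a peak gave 25.8% above and 33.4% below. The scaffold subunit Virma had 950 and 800 in siFTO against 575 and 625 in siCtrl, and Zc3h13 2475 and 2025 in siFTO against 1750 and 1900 in siCtrl. The writers Rbm15, with 950 and 450 in siFTO against 975 and 1100 in siCtrl, and Mettl16, with 325 and 250 against 375 and 375, went the other way. Virma, Zc3h13, Rbm15 and Mettl16 were not called. After scaling, 5 members rose and 2 fell, where 16.3% of all genes rose and 18.8% fell.

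Gene lists were read by their counts beside the shares for all genes, which were 16.7% falling and 5.03% rising, and 18.8% falling and 16.3% rising after scaling. Before scaling, the falling share was near that of all genes in 4 lists, so those falls do not set the lists apart. They are the insulin signalling, chromatin modifier and autophagy genes and the inhibitors of adipogenesis. Without siCtrl replicate 1 or siCtrl replicate 2 no gene of any list was called. Leaving out 1 siFTO list moved each list's counts by at most 3 genes, except where another value is given with the list. Among 15 tested adipogenic transcription factors 5 fell and none rose, with the same counts after scaling. Without siFTO replicate 1 there were 3 falls, and without siFTO replicate 2 there was 1. Zfp423, which commits cells to the fat lineage, fell to 200 and 225 bases in siFTO against 1175 and 1525 in siCtrl. Cebpa, which works with Pparg to set up the adipocyte programme, fell to 200 and 300 in siFTO against 1150 and 1200 in siCtrl. Cebpd fell to 100 and 175 in siFTO against 825 and 575 in siCtrl. The groups did not overlap in these 3 genes, but Zfp423 and Cebpa were among those picked by smallest p. Stat5a fell to 275 and 175 in siFTO against 1025 and 800 in siCtrl. Stat5b fell to 350 and 250 in siFTO against 850 and 1000 in siCtrl. Pparg, the master regulator, had 500 and 475 in siFTO against 350 and 200 in siCtrl, and Cebpb 625 and 550 in siFTO against 950 and 825 in siCtrl, neither of them called. Runx1t1 had 1375 and 850 in siFTO against 925 and 1025 in siCtrl, with overlapping groups (limma adjusted p = 0.698).

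Developmental transcription factors fell in 8 of 28 tested cases with no rise (10 falls and 1 rise after scaling) and had the lowest list median, -0.54. Without siFTO replicate 2 there were 3 falls and 1 rise. Sox4, an HMG-box factor, fell to 1375 and 1225 in siFTO against 2450 and 2525 in siCtrl. Hoxd9, a homeobox factor, fell to 100 and 75 in siFTO against 550 and 525 in siCtrl. Of 25 tested matrix and preadipocyte genes 8 fell and 1 rose, and 7 fell and 3 rose after scaling. Col1a1 fell to 1375 and 1200 in siFTO against 3625 and 3675 in siCtrl. Col4a1 fell to 1900 and 1825 in siFTO against 3509 and 3550 in siCtrl. Col4a2 fell to 2150 and 2350 in siFTO against 4391 and 4450 in siCtrl. Fbn1, a microfibril component, was the one that rose, to 775 and 625 in siFTO against 250 and 275 in siCtrl.

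Wnt, BMP and TGF-beta genes fell in 7 and rose in 2 of 29 tested cases, and in 7 and 3 after scaling. The rises were the receptor Tgfbr1, with 600 and 350 in siFTO against 0 and 75 in siCtrl, and the activin subunit Inhba, both named after their values were seen. The Frizzled receptor Fzd7 fell to 725 and 575 in siFTO against 1975 and 1975 in siCtrl. Fzd8 fell to 250 and 300 in siFTO against 981 and 937 in siCtrl. Fzd2 fell to 425 and 350 in siFTO against 1150 and 1125 in siCtrl. The ligand Wnt6 fell to 325 and 250 in siFTO against 950 and 1000 in siCtrl. Of 24 insulin signalling genes 4 fell and none rose, with 7 falls and 3 rises after scaling. Irs1, a docking protein of the insulin receptor, fell to 975 and 925 in siFTO against 2375 and 2300 in siCtrl. Irs2, its close relative, fell to 650 and 350 in siFTO against 1850 and 1934 in siCtrl. The PI3-kinase regulatory subunit Pik3r2 fell to 775 and 975 in siFTO against 2025 and 2125 in siCtrl. Shc1 was the other insulin signalling gene that fell.

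Of 47 chromatin modifiers 8 fell and none rose, and 12 fell and 7 rose after scaling. Without siFTO replicate 2, 5 fell and 1 rose. The histone methyltransferase Kmt2d fell to 2350 and 2150 in siFTO against 5525 and 5875 in siCtrl. Setd1b, another of that class, fell to 1250 and 1050 in siFTO against 3475 and 3225 in siCtrl. Kat2b, an acetyltransferase, fell to 150 and 150 in siFTO against 850 and 1000 in siCtrl. Genes of the immediate early and stress response fell in 7 of 33 cases with no rise (8 to 0 after scaling). Without siFTO replicate 1 there were 4 falls, and without siFTO replicate 2 there were 3. Jund fell to 150 and 75 in siFTO against 700 and 681 in siCtrl. Junb fell to 525 and 475 in siFTO against 1325 and 1075 in siCtrl. Hspa1b fell to 425 and 425 in siFTO against 950 and 1000 in siCtrl, but it shares sequence with its near-identical copy Hspa1a, so its value is uncertain. Of 16 autophagy genes 3 fell, and 3 fell with 2 rises after scaling. Atg9a, a lipid scramblase of the growing autophagosome, had 900 and 875 in siCtrl and fell by 1.99 on the log2 scale. Tfeb fell to 0 and 100 in siFTO against 800 and 800 in siCtrl. The starting kinase Ulk1 fell to 325 and 200 in siFTO against 675 and 675 in siCtrl.

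Cell cycle and DNA replication genes stood on the other side, with 4 rises and no fall among 20 tested and a median difference of 0.65, the highest of the 19 lists. After scaling there were 10 rises and 1 fall. With no filter on covered bases 7 of 42 rose and 2 fell, where 1034 of all 11482 genes rose and 1352 fell. Kif20b, a mitotic kinesin, rose to 925 and 625 in siFTO against 150 and 150 in siCtrl. The centromere protein Cenpf rose to 3975 and 2750 in siFTO against 1575 and 1525 in siCtrl. Pole, the leading-strand DNA polymerase, rose to 675 and 400 in siFTO against 100 and 75 in siCtrl. Kif20b and Pole passed the filter through their siFTO values. The spindle checkpoint kinase Bub1b rose to 825 and 775 in siFTO against 400 and 400 in siCtrl. Among peaks at or above each list's median fold, the difference of Bub1b was -0.06 in place of 0.85 (log2 scale). Of all 42 members with a peak, 20 had siFTO values that were both above the siCtrl values and 6 had them both below, where all 11482 genes gave 25.8% above and 33.4% below.

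Counts for the remaining lists follow, several of them with few genes tested. Cholesterol synthesis genes had 2 rises and 1 fall among 11 tested, and 3 rises and 1 fall after scaling. The synthase Hmgcs1 rose to 825 and 775 in siFTO against 400 and 400 in siCtrl. Msmo1 rose to 550 and 625 in siFTO, a log2 difference of 2.19 from siCtrl. Scap, the escort of SREBP, fell to 275 and 375 in siFTO against 1075 and 1050 in siCtrl. SR proteins and splicing factors had 2 rises and 1 fall among 28, and 6 rises and 1 fall after scaling. The helicase Ddx5 rose to 675 and 425 in siFTO, a log2 difference of 1.36 from siCtrl. The matrix protein Srrm1 rose to 1000 and 900 in siFTO against 550 and 500 in siCtrl. Srsf6 fell to 75 and 75 in siFTO against 450 and 475 in siCtrl. Their median difference was 0.08, and -0.09 without siFTO replicate 1. Interferon response genes had 2 rises of 18, Eif2ak2 and Irf2, and 3 rises and 1 fall after scaling. Inhibitors of adipogenesis had 3 falls (Irf3, Gata2 and Klf2) and 1 rise (Lcor) of 18, and 3 of each after scaling. Mature adipocyte lipid genes had 1 fall of 11, Lpin1, with 2 rises and 1 fall after scaling. Ribosomal protein genes had 1 rise of 13, Rpl4, whose reads may be shared with its pseudogenes, and 1 oxidative phosphorylation gene of 24 with a peak passed the filter. Without the filter 18 of 64 ribosomal protein genes rose and 8 fell, and 8 of 24 oxidative phosphorylation genes rose and 3 fell. All 11482 genes then gave 1034 rises and 1352 falls. Fibroblast markers had 1 rise and 2 falls of 10 tested, and the 1 tested marker of other cell types was not called.

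**Figure D5:**
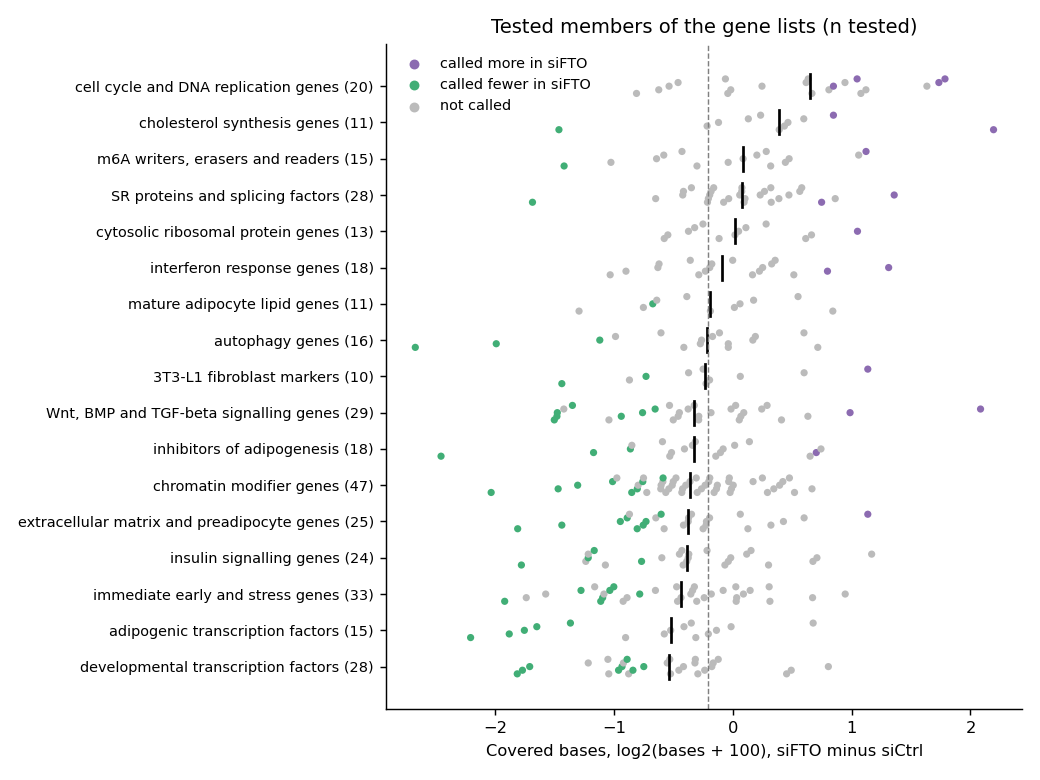
Difference in covered bases, siFTO minus siCtrl, on the log2(bases + 100) scale (x axis) for each tested member of the lists with at least 10 tested genes, coloured by limma call. Black bars are list medians and the dashed line is the median of all tested genes, -0.21. Cell cycle genes have the highest median, 0.65, and developmental transcription factors the lowest, -0.54.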

How the data were processed

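Each m6A library (IP) and its input came from fragmented poly(A) RNA of 3T3-L1 cells. The files give, per peak, its position in mm10, its gene, its transcript part and a fold, which is the authors' enrichment ratio as deposited, with no formula stated. The submitters' processing notes name TopHat2 2.0.9, bedtools and the mm10 build, with no role for the tools. No peak caller is named in the sources used here. Lists numbered 1 carry no number in the labels. Rows placed on mitochondrial genes were set apart. An exon class occurs in the lists numbered 2 alone, at under 1% of bases.

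Covered bases were summed per list, gene (11482) and part with Python 3.11.15, pandas 2.3.3 and numpy 2.4.6, and figures were drawn with matplotlib 3.10.9. Symbols were found for 11373 genes and a RefSeq gene with strand (GRCm38.p6) for 10783. List measures were compared by exact permutation. Genes (mean of at least 250 bases) and parts (at least 125) were fitted as log2(bases + 100) in limma 3.58.1 (R 4.3.3; trended, robust), with a Benjamini-Hochberg adjusted p threshold of 0.05 over all rows. The scripts were tested on simulated data. In siFTO 12260 peaks of the 2 lists shared both ends, and 66 of these the fold. In siCtrl 17581 peaks shared both ends, and 168 of these the fold, so the lists were treated as separate samples.

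Named were Fto, the m6A machinery, the 10 genes per direction and 6 parts or ratios per class with the smallest p, up to 4 genes per list by smallest p and 5 adipogenic genes fixed by name. Genes without a proper name (such as Gm or Rik names) were passed over in the ranked genes, parts and ratios. The 10 genes per direction also had to be called, with groups that did not overlap. Some genes that this rule selects are not reported here. The members and the 19 gene lists were chosen with earlier results of these data known.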

Additional observations from a re-analysis of the deposited data

Results flagged for a closer look

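Peaks on mitochondrial genes, which were left out of every comparison, numbered 12 in siFTO 1 and 13 in siFTO 2, against 2 in each siCtrl list. They covered 1675 and 1500 bases on 10 genes in siFTO, against 250 and 300 bases on 2 genes in siCtrl. The genes included mt-Rnr1, mt-Co2 and mt-Cytb in siFTO, and were mt-Nd5 and mt-Rnr1 in siCtrl. The day -2 list had 21 such peaks, and the lists of days 0 to 10 had none. The difference was not tested.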

How the results depend on the processing

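The lower 5' UTR share, higher intron and 3' UTR shares and shorter stretches of siFTO kept their direction under every alternative tried, whereas the difference in stretch number ranged between -776 (without siFTO replicate 1) and 5754. With lists scaled to equal totals, rises numbered 948 for genes and 1239 for parts, and 2011 genes lay above both siCtrl lists. Without the filter on covered bases, 1034 genes rose and 1352 fell, and 2446 parts rose and 4207 fell. The 5' UTR to coding ratio was then higher for 159 genes and lower for 748. With peaks at or above each list's median fold, that ratio was higher for 34 and lower for 79, 739 genes lay above and 1580 below, Bub1b stood at -0.062 and Kdm3b at 0.30. Same-numbered lists did not deviate together (correlation -0.06), and with the replicate block 0 genes rose or fell (1985 at unadjusted p below 0.05 in limma), 44 parts rose and 240 fell, and 0 ratios were called. Leaving out each list in turn gave 0 to 436 rises and 0 to 828 falls for genes, 577 to 1384 rises for parts, 0 to 78 higher and 0 to 185 lower ratios, and 1415 to 2228 genes above. A group left with 1 list is assumed to vary like the other. All 74 named genes that were called lost the call under the block and without either siCtrl list. Without siFTO replicate 1, 30 of them lost it, and without siFTO replicate 2, 32. Counting each base once, or leaving out peaks of 50 bases or fewer, changed nothing, since peaks do not overlap and none is so short. The cause of these changes was not tested. Leaving out rows with no spread was chosen after seeing the data. Depth is unknown.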
